A study of Rattus norvegicus with 8 samples.

Results

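The genes described here encode the receptors and the main enzymes of endocannabinoid signaling: the cannabinoid receptors Cnr1 and Cnr2, the anandamide-sensitive channel Trpv1, the synthetic enzymes Dagla, Daglb and Napepld, and the hydrolases Faah and Mgll. They were chosen by name, as the non-control spots whose gene name in the scanner files equals one of these 8 symbols. Of the 8, 7 were found among 35199 gene names, with 38 of 43379 non-control spots and 11 of 41012 probes, and Dagla was not analysed here. RNA of the dentate gyrus (DG) from 8 adult female Sprague-Dawley rats, each weighing 150 to 200 g, was measured on 4 2-colour Agilent arrays of a single slide. All rats were ovariectomized (OVX) and underwent status epilepticus (SE) induced with kainic acid, at 16 mg/kg per the sample records, and terminated with pentobarbital after 5 h. The 4 COS rats (castrated, oil, SE) received oil and the 4 CES rats (castrated, E2-replaced, SE) received 4 doses of 2 μg of estradiol at intervals of 24 h. The sample records place the doses on both sides of SE, whereas the methods of the study place them all before SE and also give another kainic acid dose, another terminating drug and differing times of tissue collection, so the interval between SE and RNA sampling is not settled. No rat without SE was analysed here, and no comparison below separates SE from the hormone. Each array carried a pair of rats of the same group, with Cy3 on replicates 1 and 3 and Cy5 on replicates 2 and 4, so that dye was balanced between the groups while array and group cannot be separated by a fixed term.

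Endocannabinoids are lipid messengers made on demand in the postsynaptic neuron, which act backwards across the synapse on presynaptic receptors and lower transmitter release. Diacylglycerol lipases (Dagla, Daglb) make 2-arachidonoylglycerol (2-AG), and Napepld makes anandamide from membrane N-acyl phospholipids. Monoacylglycerol lipase (Mgll) breaks down 2-AG at the terminal, and fatty acid amide hydrolase (Faah) breaks down anandamide in the cell body and dendrites. In the hippocampus the CB1 receptor (Cnr1) sits on terminals of cholecystokinin interneurons and of glutamatergic neurons, and the CB2 receptor (Cnr2) is known mainly from microglia and other immune cells.

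Cnr1, Faah, Mgll and Napepld were read by 60-base oligonucleotides, of which 1 for each gene is shown 5′ to 3′ so that a measured stretch of each transcript is visible. For Cnr1 and Faah the probe nearer the 5′ end of the transcript is printed. For Mgll, whose probes are named through different transcript records, the brighter probe is printed. Each of these 3 genes was read by a second probe as well. The level averages signals before the log2, so the printed Cnr1 probe, with 1 of 11 spots, and the printed Faah probe, the dimmer of its pair, make up the smaller part of the level of their genes. Positions are those that the files give on rn4, and whether a position is exonic, intronic or in a UTR was not annotated here, since no annotation of that build was used.
Cnr1, chr5:50445119-50445178, from base 1239 of the transcript: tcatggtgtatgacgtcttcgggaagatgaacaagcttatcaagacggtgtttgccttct
Faah, chr5:136325787-136326538, from base 1347 of the transcript: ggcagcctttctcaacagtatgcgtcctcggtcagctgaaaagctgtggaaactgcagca
Mgll, chr4:122904962-122905021, from base 529 of the transcript: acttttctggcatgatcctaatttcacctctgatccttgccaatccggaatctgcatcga
Napepld, chr4:8845633-8845692, from base 1114 of the transcript: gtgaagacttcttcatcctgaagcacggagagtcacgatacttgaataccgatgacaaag
The Faah probe spans 752 genomic positions with 60 bases, so it is interrupted in the genome and reads spliced RNA. The second Cnr1 probe, at chr5:50449223-50449282, lies 3′ of the first, from base 5343 of the transcript, and was printed on the array 10 times. The only Cnr2 probe that gave a level, at chr5:154702140-154702199, the only Daglb probe, at chr12:11403866-11403925, and the Trpv1 probe, at chr10:60128102-60128161, are named by position only.

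A level is a log2 value. Each background-subtracted signal was set against the median valid spot of that rat, and a gene was averaged over its spots valid in all 8 rats. Valid spots had a foreground of 2 times the local background or more. Between 30690 and 38553 spots were valid per rat, with more in COS than in CES within either dye. The Cy3 counts were 37716 and 38553 in COS and 33483 and 35352 in CES. The Cy5 counts were 34759 and 32381 in COS and 31826 and 30690 in CES. The median was therefore taken over a different set of spots in each rat. In all, 21332 genes were quantified. Of these, limma with Benjamini-Hochberg adjustment called 5.80% higher in CES than in COS and 28.3% lower (adjusted p under 0.05), and the median difference of all genes was -0.25 on the log2 scale. That balance depends on the scaling. Under 4 other scalings (loess and Aquantile, quantile, the deposited log2 table and the median of the spots valid in all 8 rats) the median difference of all genes was 0.08 to 0.15. It was 0.15 with the last of these, which takes the same spots in every rat. The share of higher genes among the calls was 17.0% in the first scaling and 59.6% to 66.1% in these 4. Differences of the members are therefore given both as measured and as their distance from the all-gene median.

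Among the 7 measured members, Mgll was called higher and Cnr2 lower in the CES rats, and Cnr1, Faah, Daglb, Napepld and Trpv1 did not pass the threshold. Mgll was 1.63-fold higher (log2 difference 0.71 ± 0.21 SE, adjusted p = 0.0282 by limma with Benjamini-Hochberg adjustment), and Cnr2 was lower by a log2 difference of -1.45 ± 0.30 (adjusted p = 0.00806), with only 2 of 4 CES rats well above background. Beside the backgrounds of 5.80% and 28.3%, 1 higher call and 1 lower call among 7 genes is a small count in either direction. Set against the all-gene median, Mgll (0.96), Faah (0.80), Cnr1 (0.62) and Daglb (0.44) lay above it, Napepld (-0.10) and Trpv1 (-0.03) lay near it, and Cnr2 (-1.19) lay below it. The median difference was 0.18 over the 7 members, against -0.25 over all genes.

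**Figure D1:**
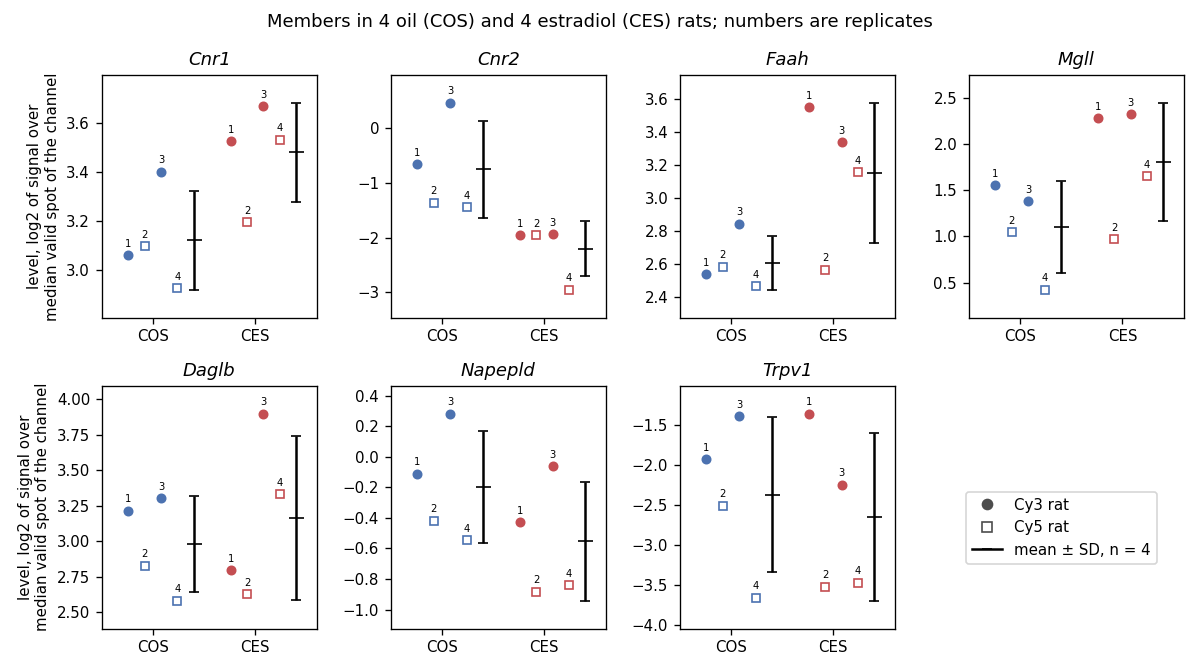
Level of each measured member in each rat (y axis, log2 of signal over the median valid spot of its channel), in COS and CES, with replicate numbers, the dye as the symbol and the mean ± SD of 4 rats in black. The CES values of Cnr2 all lie below the COS values, while replicate 2 of CES lies within or near the COS range for Cnr1, Faah and Mgll.

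Cnr1, the presynaptic receptor, was bright in every rat. Its level was 3.06, 3.10, 3.40 and 2.93 in COS replicates 1 to 4 and 3.53, 3.20, 3.67 and 3.53 in CES replicates 1 to 4. Of the CES rats, 3 lay above the highest COS rat, and CES replicate 2 lay inside the COS range. The means were 3.12 ± 0.20 and 3.48 ± 0.20 (SD, n = 4), a difference of 0.36 ± 0.16 SE that limma did not call (adjusted p = 0.117). The difference was 0.37 between the Cy3 rats and 0.35 between the Cy5 rats. Its probes gave like values, 0.25 ± 0.21 for the probe printed above (adjusted p = 0.389) and 0.37 ± 0.17 for the 10-spot probe (adjusted p = 0.113, limma on single probes).

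The 10 copies of the second Cnr1 probe show the technical spread. Within a rat, the SD of their log2 signals was 0.14 to 0.27, close to the SD of 0.20 between rats in either group. All 80 readings of this probe were marked well above background by the scanner software. Averaging 10 copies lessens error that is independent between copies, which is not so for Cnr2, Daglb, Faah and Mgll, with 1 spot per probe. The copies did not vary wholly independently. A single copy was the brightest in all 4 COS rats (signals 3552, 6502.5, 3432 and 7512 in replicates 1 to 4), though not in the CES rats. The remaining error of the Cnr1 mean was not measured.

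Cnr2, the CB2 receptor, was the dim exception. Its level came from 1 spot and was -0.66, -1.36, 0.46 and -1.45 in COS replicates 1 to 4 and -1.96, -1.95, -1.94 and -2.95 in CES replicates 1 to 4. Every CES rat lay below every COS rat, a pattern shown by 19.8% of all genes in this direction and by 1.61% in the other. The means were -0.75 ± 0.88 and -2.20 ± 0.50 (SD, n = 4).

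The raw signals of that spot, minus local background, were 206.5, 223.5, 328 and 263 in COS and 69.7, 161, 53.6 and 64.0 in CES. The COS signals all lay above the 95th percentile of negative controls read with the same dye on the same array. In CES they did so in replicates 2 and 4, both Cy5, whereas replicates 1 and 3 lay below percentiles of 110.4 and 83.8. The spot was marked well above background in 4 of 4 COS and 2 of 4 CES rats. The other Cnr2 probe, at chr5:154700489-154700548, was valid in 4 COS rats and in no CES rat, and was well above background in none of the 8. The lower CB2 value therefore rests on a single spot near background.

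The difference of Cnr2 was -1.85 between the Cy3 rats and -1.05 between the Cy5 rats. Without COS replicate 3, the brightest, it was -1.13 with an adjusted p of 0.0522 by limma. Under the 4 other scalings it was -1.29 to -1.03, called with the deposited table and the scaling over spots valid in all 8 rats, with adjusted p from 0.0445 to 0.0748 (limma). The background correction moved it further, to -0.70 with normexp, where the groups overlapped and the adjusted p was 0.380, and to -2.14 with the processed signal (adjusted p = 0.0158, limma). In the order loess, quantile, deposited table and spots valid in all 8 rats, the share of all genes called lower was 8.63%, 10.1%, 9.17% and 8.05%. In each of the 4 every CES rat again lay below every COS rat for Cnr2, a pattern shown by 12.4%, 14.1%, 12.1% and 11.2% of all genes.

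Genes of microglia moved beside Cnr2, though not all in the same direction. All 6 microglial marker genes were quantified in all 8 rats. Limma called Cd68 (-2.19), Itgam (-1.92) and Csf1r (-0.92) lower in CES and P2ry12 (0.93) higher, while Aif1 (-0.32) and Cx3cr1 (-0.43) were not called. Over all genes, 28.3% were called lower and 5.80% higher. The sizes depended on the processing and on single rats. Over all alternatives, Cd68 ranged from -2.66 to -1.70, Itgam from -2.51 to -1.51 and Csf1r from -1.05 to -0.50. The log2 of their summed level was 5.08 to 5.68 in COS and 4.64 to 5.14 in CES. In CES replicate 2 the genes called lower, Cd68 (1.66), Itgam (2.39) and Csf1r (1.98), were the highest among the CES rats, and Aif1 (3.35) and P2ry12 (2.44) were the lowest. The part of these cells in the Cnr2 difference was not tested, and in bulk tissue fewer cells of a type and less RNA per cell cannot be told apart.

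Trpv1, a cation channel opened by anandamide and by capsaicin, was at the limit of detection. Over its 10 spots the median signal minus background was 90.8, 106, 84.5 and 51.8 in COS replicates 1 to 4 and 56.0, 46.2, 40.7 and 42.7 in CES replicates 1 to 4. Of its 80 readings, 37 lay above the 95th percentile of negative controls. The scanner software marked 6 of 40 readings in COS and 0 of 40 in CES as well above background, and 1 spot of COS replicate 1 read 439 where the next highest read 137.5. COS replicate 3 and all CES rats had no marked reading, and no fold is given.

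The fitted level of Trpv1 used the 2 spots valid in all 8 rats. It was -1.93, -2.51, -1.38 and -3.66 in COS and -1.35, -3.53, -2.25 and -3.48 in CES, and the groups overlapped over nearly their whole range. Limma did not call the difference (-0.28 ± 0.29 SE, adjusted p = 0.478). It had the opposite sign (0.08 and 0.12) with the deposited log2 table and with the scaling over spots valid in all 8 rats. With no filter on valid spots, which takes all 10 spots, it was -0.81 ± 0.28 SE and not called (adjusted p = 0.0961, limma). These include the spot of COS replicate 1 that read 439.

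**Figure D2:**
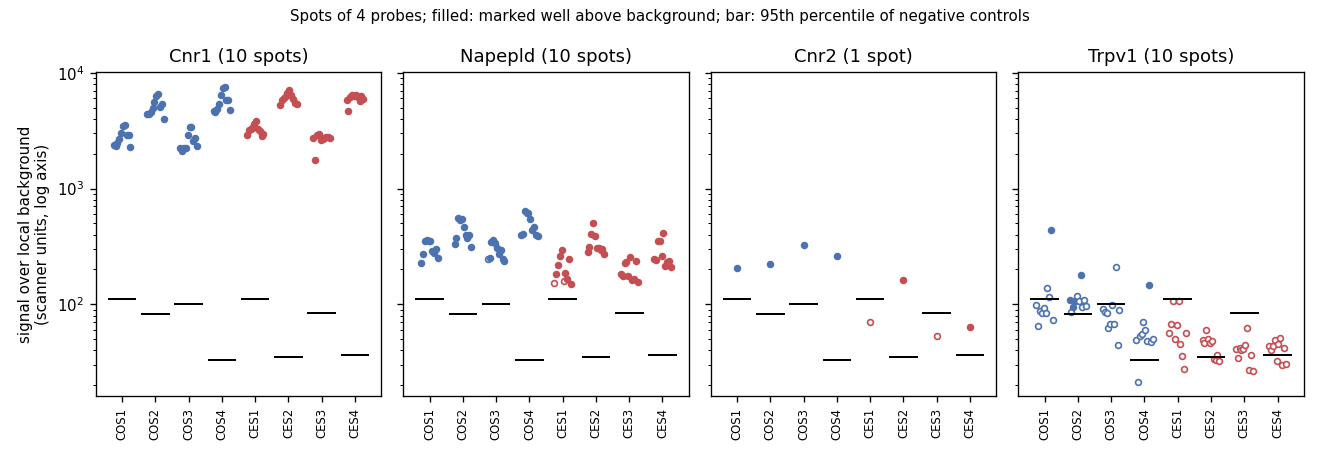
Signal minus local background (y axis, scanner units, log axis) of every spot of 4 probes in each rat, filled where marked well above background, with the 95th percentile of negative controls in that channel as a black bar. Cnr1 and Napepld lie above the bars in all 8 rats, Cnr2 lies below them in CES replicates 1 and 3, and Trpv1 lies mostly at or below them in the Cy3 rats and just above them in the Cy5 rats.

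Both synthetic enzymes measured here fell short of a call. Daglb, the second diacylglycerol lipase, was 3.22, 2.83, 3.30 and 2.58 in COS replicates 1 to 4 and 2.80, 2.63, 3.90 and 3.33 in CES replicates 1 to 4. CES replicates 3 and 4, which share an array, were the higher CES rats, and replicates 1 and 2 lay within the COS range. The difference of 0.18 ± 0.26 SE was not called (adjusted p = 0.613, limma), and it was 0.63 without the array of CES replicates 1 and 2 and -0.27 without that of replicates 3 and 4. It also turned negative when CES replicate 3 (-0.11) or replicate 4 (-0.08) was left out alone.

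Napepld, the phospholipase of anandamide synthesis, was read by 10 spots of a single probe. Its level was -0.11, -0.42, 0.28 and -0.54 in COS and -0.43, -0.88, -0.06 and -0.84 in CES. The Cy3 rats were the higher ones in both groups, and the groups overlapped. The SD over the 10 spots within a rat was 0.23 to 0.35, near the SD between rats of 0.37 in COS and 0.39 in CES, and 77 of 80 readings were well above background. The difference of -0.36 ± 0.17 SE was not called (adjusted p = 0.126, limma), but without CES replicate 3 it was -0.44 and called (adjusted p = 0.0440). Under the 4 other scalings it was 0.03 to 0.04, with the opposite sign.

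The hydrolases had the largest positive differences among the members. Mgll, which ends 2-AG signaling, was 1.56, 1.04, 1.38 and 0.42 in COS replicates 1 to 4 and 2.28, 0.97, 2.33 and 1.65 in CES replicates 1 to 4. The 3 CES replicates 1, 3 and 4 lay above every COS rat, and replicate 2 lay below the COS mean. The group means were 1.10 ± 0.50 and 1.81 ± 0.64 (SD, n = 4), and the difference was 0.84 between the Cy3 rats and 0.57 between the Cy5 rats. Without both rats of an array it ranged from 0.51 to 0.90.

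The call of Mgll depended on single rats. Without CES replicate 2 the difference was 0.87 with an adjusted p of 0.00547, whereas without COS replicate 1, 3 or 4 or CES replicate 1 the adjusted p was 0.0766, 0.123, 0.0934 and 0.0949 (limma). With the replicate number as a block the adjusted p was 0.0559, above the threshold, and it was 0.315 with normexp, 0.0561 with the processed signal and 0.0925 with no filter on valid spots (limma). The probe printed above gave 0.74 ± 0.21 SE (adjusted p = 0.0254), and the second, dimmer Mgll probe, at chr4:122822973-122823032 and named through another transcript record, gave 0.45 ± 0.20 (adjusted p = 0.106, limma on single probes). Both probes had CES replicate 2 at the foot of its group, at 1.83 and -1.48.

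Faah, which ends anandamide signaling, was 2.54, 2.58, 2.84 and 2.47 in COS replicates 1 to 4 and 3.55, 2.56, 3.34 and 3.15 in CES replicates 1 to 4. As with Mgll, CES replicates 1, 3 and 4 lay above every COS rat and replicate 2 lay among them. The means were 2.61 ± 0.16 and 3.15 ± 0.42 (SD, n = 4), and the difference of 0.54 ± 0.19 SE missed the threshold (adjusted p = 0.0522, limma). Leaving out CES replicate 2 brought it past the threshold (0.70, adjusted p = 0.00895), as did leaving out CES replicate 3 (0.51, adjusted p = 0.0465). The spliced probe printed above gave 0.63 ± 0.22 (adjusted p = 0.0477) and the other probe, at chr5:136328487-136328546, gave 0.53 ± 0.19 (adjusted p = 0.0550, limma on single probes).

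Under the 4 other scalings, Cnr1, Faah and Mgll were all called higher in CES. The difference was 0.69 to 0.76 for Cnr1 (adjusted p from 0.0202 to 0.0243), 0.87 to 0.94 for Faah (0.0393 to 0.0420) and 1.06 to 1.10 for Mgll (0.0224 to 0.0255), by limma with Benjamini-Hochberg adjustment. In all 4 of them the CES rats lay above the COS rats without overlap for these 3 genes. In the same order of scalings, the share of all genes called higher was 15.0%, 14.9%, 15.6% and 15.7%, and the share above without overlap was 21.8%, 21.0%, 18.0% and 18.5%. Daglb and Napepld were called under none of the 4. Daglb also lay above without overlap with the deposited table and with the scaling over spots valid in all 8 rats, by a narrow margin. Its lowest CES and highest COS levels were 2.00 and 1.99 with the former and 1.99 and 1.94 with the latter.

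**Figure D3:**
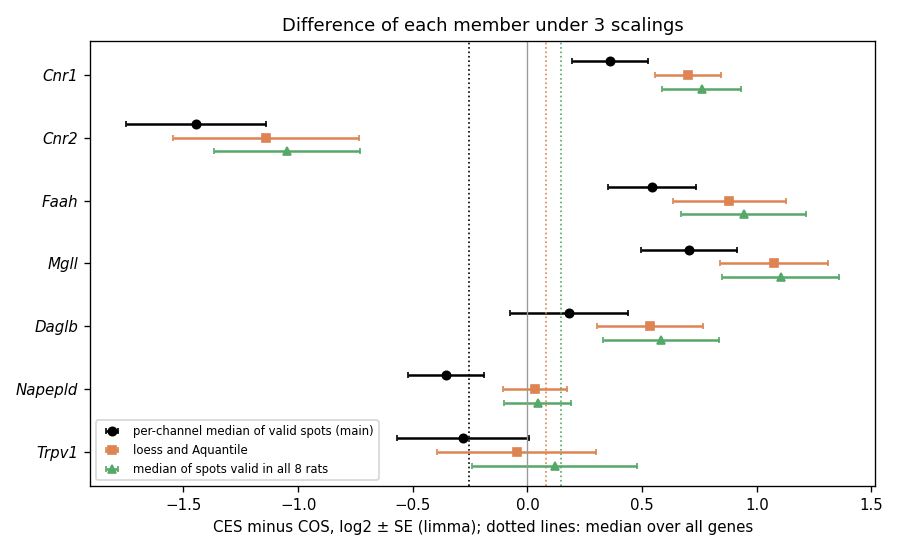
CES minus COS difference of each member (x axis, log2, ± SE from limma) under the scaling used throughout, under loess with Aquantile and under the median of spots valid in all 8 rats, with the median over all genes of each scaling as a dotted line. The scaling used throughout and that over spots valid in all 8 rats differ by a constant per rat. The distance of each member from its dotted line is therefore the same in both by construction. With loess that distance was 0.62 for Cnr1 and 0.80 for Faah, as in the scaling used throughout, and -0.13 against -0.03 for Trpv1. The distance from 0 differed between the scalings.

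A ratio within a rat does not change when its channel is multiplied by a constant. For Napepld minus Faah, the synthetic and the degrading enzyme of anandamide, the log2 ratio was -2.65, -3.00, -2.56 and -3.01 in COS replicates 1 to 4 and -3.98, -3.45, -3.40 and -3.99 in CES replicates 1 to 4. Every CES rat lay below every COS rat, CES replicate 2 included. The share of other gene pairs that separate the groups in this way was not computed. Under the 4 other scalings Faah alone separated the groups, as did 18.0% to 21.8% of all genes in its direction. The level of the ratio compares different probes and has no meaning by itself, but its shift between the groups was -0.90, or 1.86-fold (exact permutation test, two-sided, p = 0.0286, the smallest that 4 against 4 rats can give). It was -0.85 with loess and -0.84 with quantile normalization. The permutation moved single rats and had no dye or array term, although both rats of an array belong to the same group. Its p therefore takes the rats of an array as independent. The shift was -1.08 between the Cy3 rats and -0.72 between the Cy5 rats, and with normexp background correction it was -0.87 with an exact p of 0.0571.

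The corresponding ratios of Dagla with Mgll and with Daglb were not analysed here, and Mgll minus Daglb was chosen in their place after its values were known, so it carries no test. It was -1.66, -1.79, -1.92 and -2.16 in COS and -0.51, -1.66, -1.57 and -1.68 in CES. The groups met at COS replicate 1 and CES replicates 2 and 4, and CES replicate 1 stood far above the rest. The groups also did not overlap for 2 further ratios with Napepld, likewise chosen after their values were known and given with no test. For these, too, the share of other gene pairs without overlap was not computed. Mgll minus Napepld was 0.97 to 1.67 in COS and 1.85 to 2.71 in CES, and Cnr1 minus Napepld was 3.12 to 3.51 in COS and 3.73 to 4.37 in CES.

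**Figure D4:**
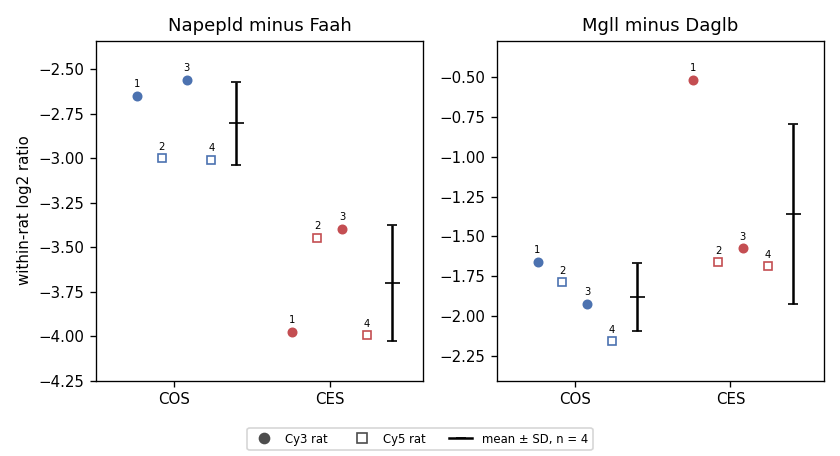
Within-rat log2 ratios (y axis) of Napepld to Faah and of Mgll to Daglb in the 4 COS and 4 CES rats, with the dye as the symbol and the mean ± SD in black. The Napepld to Faah ratio separates the groups, at -3.01 to -2.56 in COS and -3.99 to -3.40 in CES, and the Mgll to Daglb ratio does not.

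Because E2 acts on genes through receptors that bind an inverted repeat of the half-site GGTCA, the 250 bases before each start of the members were searched on both strands. The sequences came from a table of RefSeq promoters on GRCr8, in which 8 starts of 6 members were matched, and those of Cnr1 and Dagla were not analysed here. The full element GGTCANNNTGACC was in none of the 8 and in 0.0239% of 33469 promoters. The half-site was in the windows of Faah (3 matches), Daglb (3 matches) and 1 of the 3 starts of Cnr2 (1 match), and in 35.4% of all promoters. The window of Faah is printed, with the half-sites in capitals, since a pair of them stands in tandem with 1 base between, an arrangement noticed on reading the sequence.
Faah, GRCr8 chr5:134735397-134735646, minus strand: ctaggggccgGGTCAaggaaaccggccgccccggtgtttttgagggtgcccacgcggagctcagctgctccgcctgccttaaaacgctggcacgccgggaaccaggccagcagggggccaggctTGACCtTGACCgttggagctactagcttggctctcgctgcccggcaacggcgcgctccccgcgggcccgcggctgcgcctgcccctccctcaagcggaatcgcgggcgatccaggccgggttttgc
These matches describe letters only, and no binding was measured.

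Of 33 further genes of the pathway, 26 were quantified, and limma with Benjamini-Hochberg adjustment called 2 higher and 5 lower in CES, beside 5.80% and 28.3% of all genes. Their median difference was 0.15, against -0.25 over all genes, and 19 of the 26 lay above the median of all genes. The genes called were spread over transducers, synthesis, breakdown and carriers. The counts rested on single rats, with 0 higher and 0 lower without COS replicate 3, 1 and 2 without CES replicate 1, 1 and 3 without COS replicate 1, and 4 higher without CES replicate 2. The 7 genes Gpr55, Gpr18, Gpr119, Trpa1, Pla2g4e, Ptpn22 and Alox12 had no spot valid in all 8 rats.

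Among related receptors and channels, none of 4 was called. Ppara (0.03) and Pparg (1.08 ± 0.70 SE), nuclear receptors for fatty acid derivatives, had adjusted p of 0.902 and 0.259 (limma). The channels Trpv2 (-0.48) and Trpv4 (-0.17) were not called either.

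The partners and transducers of CB1 moved in opposite directions. Gprasp1, which sorts internalized receptors for degradation, rose by 0.66 ± 0.23 SE (adjusted p = 0.0486, limma), from 3.90 ± 0.36 to 4.56 ± 0.54 (SD, n = 4). With the replicate number as a block its adjusted p was 0.0630. Sgip1, which holds CB1 at the membrane, was called lower (-0.57 ± 0.18 SE, adjusted p = 0.0336, limma), as were the inhibitory G protein subunits Gnai2 (-0.78 ± 0.18, adjusted p = 0.0115) and Gnai3 (-0.86 ± 0.19, adjusted p = 0.00976). Gnai1 (0.21), the abundant Gnao1 (0.36) and the CB1-binding Cnrip1 (0.36, adjusted p = 0.117) were not called, nor were the arrestins Arrb1 (-0.41) and Arrb2 (0.12). Every CES rat lay below every COS rat for Gnai2 and Gnai3, as for 19.8% of all genes.

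In synthesis, Plcb1, the phospholipase that supplies diacylglycerol for 2-AG, rose from 2.65 ± 0.31 to 3.51 ± 0.57 (SD, n = 4), a difference of 0.85 ± 0.20 SE (adjusted p = 0.0121, limma). Plcb4 (0.14), Abhd4 (-0.21), Gde1 (0.15) and Hrasls5 (0.32) were not called.

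In breakdown, Ptgs2, the inducible cyclooxygenase that also oxidizes endocannabinoids, fell by 1.89 on the log2 scale, from 4.79 ± 0.46 to 2.90 ± 0.83 (SD, n = 4, adjusted p = 0.00760, limma), with no overlap between the groups (19.8% of all genes). The other 2-AG hydrolases, Abhd6 (0.38 ± 0.16 SE, adjusted p = 0.0925) and Abhd12 (0.27 ± 0.19, adjusted p = 0.277), had positive differences short of a call. Naaa (-0.12) and Alox15 (0.20) were not called.

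Of the carriers, Fabp5, an intracellular carrier of anandamide, fell by 1.34 (± 0.34 SE, adjusted p = 0.0150, limma), from 8.29 to 6.95, with no overlap (19.8% of all genes), while Fabp3 (0.31) and Fabp7 (0.25) were not called.

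Under the 4 other scalings 9 pathway genes were called higher in each, namely Abhd6, Abhd12, Arrb2, Cnrip1, Fabp3, Gprasp1, Hrasls5, Plcb1 and Plcb4, where 14.9% to 15.7% of all genes were. Ptgs2 was called lower in all 4 (-1.56 to -1.49), Gnai3 in 2 of them, and Gnai2, Sgip1 and Fabp5 in none.

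**Figure D5:**
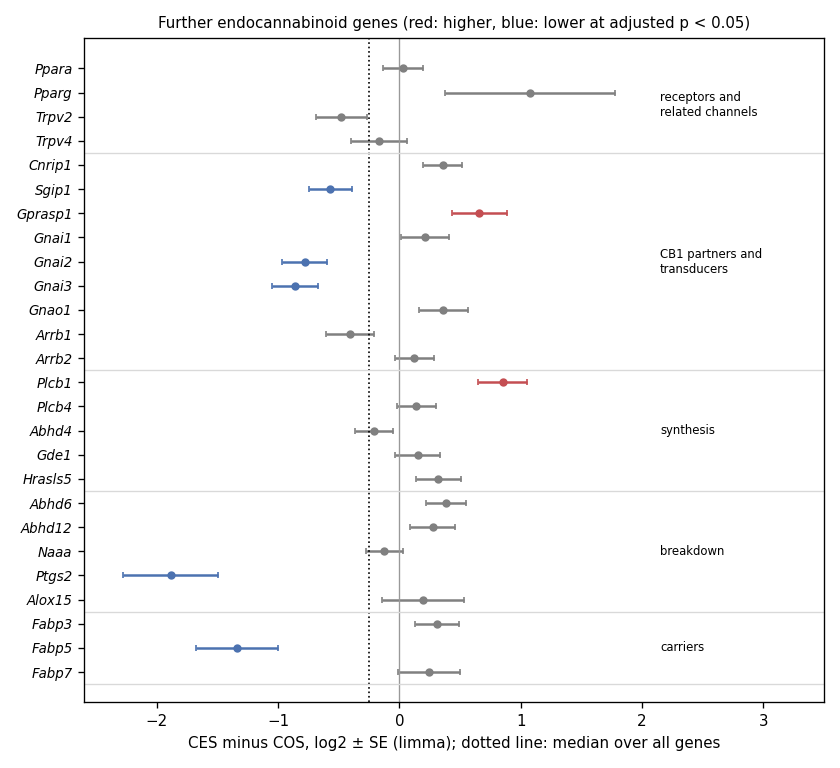
CES minus COS difference (x axis, log2, ± SE from limma) of the 26 quantified pathway genes by role, with called genes in colour and the median over all genes (-0.25) as a dotted line. Plcb1 and Gprasp1 are the genes called higher, and Sgip1, Gnai2, Gnai3, Ptgs2 and Fabp5 those called lower.

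Markers of the cells in the dissected tissue differed between the groups beside these genes. Of 4 markers of CA pyramidal neurons, limma called Pou3f1 (2.23), Wfs1 (0.98) and Fibcd1 higher in CES and not Bok, where 5.80% of all genes were called higher. Over all alternatives, Pou3f1 ranged from 1.82 to 2.63, Wfs1 from 0.82 to 1.38 and Fibcd1 from 0.14 to 1.39. Fibcd1 was well above background in 0 of 4 COS and 2 of 4 CES rats. The log2 of the summed level of the 4 markers was 2.70 to 3.19 in COS and 3.18 to 4.49 in CES. Of 5 granule cell markers of the DG, 4 were quantified. Dsp (-1.24) and C1ql2 (-1.23) were called lower and Calb1 (-0.28) was not, where 28.3% of all genes were called lower. Dsp was well above background in 3 of 4 COS and 2 of 4 CES rats. Over all alternatives, Dsp ranged from -1.73 to -0.66 and C1ql2 from -1.50 to -0.83. Tdo2 also passed the test but was well above background in no rat. The summed level of these 4 was 3.65 to 4.48 in COS and 3.14 to 3.68 in CES. Prox1, the defining marker of granule cells, had no spot valid in all 8 rats. In CES replicate 2, where Cnr1, Faah and Mgll were lowest among the CES rats, all 4 pyramidal markers were also the lowest of their group, with Wfs1 at 2.33 and Pou3f1 at 1.02. Of the granule cell markers only C1ql2 (2.83) was the highest of its group in that rat. CES replicate 2 was also the lowest CES rat for Daglb, Napepld, Plcb1 and Gprasp1, and the highest for Ptgs2, Fabp5 and Sst. Whether these genes vary with the pyramidal markers was not tested. The part of the marker differences in the differences of Cnr1, Faah and Mgll was not tested.

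Of 7 interneuron markers, Sst (-1.56) and Vip (-1.06) were called lower, a share like the 28.3% of all genes. Cck, which marks the interneurons rich in CB1, was not called (0.38, adjusted p = 0.196, limma). Pvalb (0.51), Gad1 (-0.57), Gad2 (-0.58) and Slc32a1 (-0.33) were not called either, so the list had no common direction. Among other lists, Aldh1l1 (1.23) was called higher of 5 astrocyte markers and Syt1 (0.59) higher of 3 quantified neuronal markers, beside 5.80% of all genes. Flt1 (-1.04) was called lower of 2 quantified endothelial markers, and none of 4 oligodendrocyte markers was called. The choroid plexus markers, of which none was called, had summed levels of 3.69 to 9.25 in COS and 3.96 to 7.58 in CES, highest in COS replicate 2, where Ttr reached 9.22.

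Among the genes well above background in all 8 rats, those whose level, taken against the all-gene median, was most like that of a member were found by Pearson's r over the 8 rats, out of 13689 genes. The rats share dyes and arrays, and the values are descriptions. For Cnr1 they were Ube2k (0.999), Lrp11 (0.996) and Pds5b (0.996). For Faah they included Acot5 (0.993) and Elmod1 (0.993), for Mgll Slc4a4 (0.992), for Daglb Fam13b (0.994), and for Napepld Cnpy3 (0.965) and LOC684131 (0.960), the remaining ones being transcripts without a gene symbol. Likeness of pattern did not mean likeness of size, since Fam13b differed by 1.38 between the groups where Daglb differed by 0.18.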

How the data were processed

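The deposited scanner files give, for either dye, a foreground and a background intensity per spot (Agilent Feature Extraction 10.7.3.1, per the labels, on rn4) that the authors had not normalized, and a processed intensity corrected for background and dye by that software. A further deposited table holds log2 values relative to a median per channel. The files of both rats of an array hold the same spots, and each rat was read from the columns of its dye. Signals were background-subtracted, divided by the channel median of valid spots (foreground at least 2 times background), averaged over the spots of a gene valid in every rat, and log2-transformed. The groups were compared in limma 3.58.1 (R 4.3.3), two-sided, with dye as a term, array as a random block (statmod 1.5.0, consensus correlation -0.006) and Benjamini-Hochberg adjustment over all genes at 0.05. The Napepld minus Faah ratio was tested by exact permutation of single rats, with no dye or array term. The number of arrays limits the precision, and the median SE was 0.20. When tested on simulated data with 200 of 21332 genes changed, this model found 48% of genes with a log2 change of 1. It found 93% of genes with a log2 change of 2, and 8 of 149 calls were false. No array effect was simulated, since the consensus correlation was below 0. The performance of the model with array effects, with as many genes changed as were called here, or with a shift of all genes, was not tested.

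The members, the pathway and marker lists and the tests were chosen with earlier results of these data known. All members were named, pathway genes where called or where given by their role, and for likeness the 3 genes of highest r per member. Same-numbered rats of both groups deviated together (r of 0.317, 0.209, 0.295 and 0.335), but the number carries the dye, and after the dye term these values were -0.17, -0.28, -0.20 and 0.08. Alternatives covered the background correction, the scaling, the filter on dim spots, the array and replicate blocks, the dye term, the probe, the gene name, the methods' t-test, the deposited table and leaving out each rat. The methods' t-test was the unequal-variance test of the study, but adjusted by Benjamini-Hochberg over all genes. The study instead corrected for redundant spots of a gene and applied a fold-change cut-off per gene, so its own criterion was not applied here. The scaling over spots valid in all 8 rats, single probes, values within a dye and without an array were added after the data were seen. Figures were drawn with matplotlib 3.10.9 in Python 3.11.15.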

Additional observations from a re-analysis of the deposited data

Results flagged for a closer look

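The level of Cnr2 in CES replicate 4 was -2.95, far from the other 3 CES rats at -1.96 to -1.94. Its gap to the nearest of them, as a share of the range of the group, passed the 95% critical value of Dixon's test. Of 16 groups of 4 values tested in this way, 1 passed, and chance gives about 1 in 20.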

How the results depend on the processing

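The direction of the difference of Cnr1, Cnr2, Faah and Mgll was the same under each of the alternatives that gave a value. Cnr2 and Trpv1 had no value when spots had to reach 3 times background or be well above background in all rats. Members called higher numbered 1. The count was 0 with normexp, the processed signal, no filter on valid spots, the replicate block and the methods' t-test, 2 with a foreground of 3 times background, with the well above background filter and with no dye term, and 3 with loess, quantile, the deposited table and the scaling over spots valid in all 8 rats. Leaving out 1 rat gave 0 to 2. Members called lower numbered 1, and 0 with normexp, loess, quantile, a foreground of 3 times background, the well above background filter and the methods' t-test, and 0 to 2 when 1 rat was left out.

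Of all genes, 1238 were called higher and 6038 lower. The counts were 125 and 461 with normexp, 3207 and 1840 with loess, 3173 and 2151 with quantile, 420 and 2776 with no filter, 3275 and 1927 with the deposited table and 3348 and 1718 with the scaling over spots valid in all 8 rats. The methods' t-test called 0 in either direction after Benjamini-Hochberg adjustment over all genes, which the study did not use. It gave 6103 genes at an unadjusted p under 0.05 (9633 by limma). Leaving out 1 rat gave 257 to 1855 higher and 914 to 7012 lower, with the fewest in either direction without COS replicate 3. Of the pathway genes, 2 were called higher and 5 lower. The counts were 0 and 0 with normexp and with the methods' t-test, 9 and 1 with loess and with the scaling over spots valid in all 8 rats, 9 and 2 with quantile and with the deposited table, and 0 and 2 with no filter. The processed signal and the replicate block each gave 1 higher. Leaving out 1 rat gave 0 to 4 higher and 0 to 7 lower.

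Napepld was positive with loess (0.033), quantile (0.039), the deposited table (0.031) and the scaling over spots valid in all 8 rats (0.044). Trpv1 was positive with the deposited table (0.080) and that scaling (0.12). Daglb ranged from -0.11 to 0.40 when 1 rat was left out, and was negative without CES replicate 3 (-0.11) or 4 (-0.084). The Napepld minus Faah shift was -0.87 with normexp, short of the threshold, and -1.002 to -0.802 when 1 rat was left out. The replicate block changed the call of Mgll (difference 0.71) and of Gprasp1 and no other call among the members, for which it gave adjusted p of 0.0120 for Cnr2 and 0.0832 for Faah. Signals near background limit Cnr2 and Trpv1. The scalings themselves fix the shift of all genes, and which of them is nearer to the RNA amounts was not tested.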
